A study of Mus musculus with 10 samples.

Results

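Mammalian cells watch their cytosol for nucleic acids that should not be there. The RIG-I-like receptors are helicases that bind viral or other foreign RNA and pass the signal to MAVS, an adaptor on the mitochondrial membrane, from which the kinases TBK1 and IKK-epsilon turn on interferon genes. Other proteins, such as ZBP1 and members of the HIN-200 family, bind Z-form nucleic acid or DNA. Many of these sensor genes are themselves induced by interferon, so their level is a common readout of an interferon response in macrophages and other marrow cells.

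The genes described here are 8: the RIG-I-like receptors Ddx58, Ifih1 and Dhx58, the helicase Ddx60, Zbp1, the HIN-200 genes Ifi204 and Ifi205, and the adaptor Mavs. A gene was kept where the array carried a probe set annotated with its symbol alone, which held for 7 of the 8, among 19938 genes in all. Each of the 7 had 1 such probe set. Ifi204 shared its probe set with Ifi211 and was not analysed here. Marrow was taken from long bones of male Swiss mice aged 4 to 6 weeks and grown in αMEM with 10% fetal calf serum and 1e-08 M calcitriol, the hormone form of vitamin D. Both arms had this medium. One arm received recombinant mouse adiponectin, a hormone of fat cells, at 5 µg/ml, and the control arm received vehicle. RNA came from 1 culture per arm at each of 4, 10, 24, 72 and 120 h, so there were 10 arrays, 5 per arm, paired by time. The series title raises contamination by lipopolysaccharide, the endotoxin of Gram-negative bacteria. The labels give neither the endotoxin content of the preparation nor whether cultures came from separate or pooled animals, so the p-values cover only how far these cultures differ among themselves, and that may be technical.

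Values are log2 array levels. Array medians over the 19938 genes lay between 8.27 and 8.48. All 6 measured macrophage markers and all 8 neutrophil markers were above the array median on every array. So were 3 of 5 B cell, 2 of 6 plasmacytoid dendritic cell, 2 of 6 conventional dendritic cell and 4 of 7 osteoclast markers. The same held for 2 of 3 monocyte, 2 of 3 megakaryocyte and 4 of 6 stromal cell and osteoblast markers. It held for 2 of 4 endothelial and 1 of 5 T cell markers. None of 5 NK cell and none of 3 erythroid markers reached that level on every array. The share of all genes that did was not counted, so the partial counts do not show which cells were present.

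Promoter windows of 5 of the 7 genes, all but Dhx58 and Zbp1, came from the RefSeq set (build GRCm38.p6), each holding 250 bases before the annotated start and 50 after it. They are shown as the sequence around the starts of genes whose levels are compared here. Whether these letters bear on the levels was not tested. Capitals mark matches to the core of the interferon-stimulated response element, searched on both strands, so that a match on the opposite strand is printed as its reverse complement. The windows lie, in the order below, at chr4:40239776-40240075 (minus strand), chr2:62646206-62646505 (minus strand), chr8:61927837-61928136 (plus strand), chr1:174031706-174032005 (minus strand) and chr2:131233813-131234112 (plus strand).
Ddx58: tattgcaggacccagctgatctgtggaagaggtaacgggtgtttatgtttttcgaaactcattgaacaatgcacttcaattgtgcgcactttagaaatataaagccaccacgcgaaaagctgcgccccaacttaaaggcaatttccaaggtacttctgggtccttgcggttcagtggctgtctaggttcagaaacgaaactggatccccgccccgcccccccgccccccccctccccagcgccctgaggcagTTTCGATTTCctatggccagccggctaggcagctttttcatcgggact
Ifih1: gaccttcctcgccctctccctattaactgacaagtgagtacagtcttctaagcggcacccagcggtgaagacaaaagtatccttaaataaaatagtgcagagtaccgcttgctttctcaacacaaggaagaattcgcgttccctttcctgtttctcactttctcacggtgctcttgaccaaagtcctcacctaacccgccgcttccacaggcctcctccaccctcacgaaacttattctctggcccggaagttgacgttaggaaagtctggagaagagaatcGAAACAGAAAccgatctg
Ddx60: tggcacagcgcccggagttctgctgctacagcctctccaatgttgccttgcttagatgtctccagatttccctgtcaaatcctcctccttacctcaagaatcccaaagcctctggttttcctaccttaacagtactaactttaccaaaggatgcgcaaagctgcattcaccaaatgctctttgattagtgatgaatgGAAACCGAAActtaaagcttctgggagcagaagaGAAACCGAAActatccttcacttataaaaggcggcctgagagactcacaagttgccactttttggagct
Ifi205: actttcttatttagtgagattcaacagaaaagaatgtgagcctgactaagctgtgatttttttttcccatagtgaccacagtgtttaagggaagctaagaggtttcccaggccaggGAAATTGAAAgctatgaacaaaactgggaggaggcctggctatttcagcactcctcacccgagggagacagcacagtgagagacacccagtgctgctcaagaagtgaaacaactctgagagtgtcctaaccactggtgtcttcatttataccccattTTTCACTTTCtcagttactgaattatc
Mavs: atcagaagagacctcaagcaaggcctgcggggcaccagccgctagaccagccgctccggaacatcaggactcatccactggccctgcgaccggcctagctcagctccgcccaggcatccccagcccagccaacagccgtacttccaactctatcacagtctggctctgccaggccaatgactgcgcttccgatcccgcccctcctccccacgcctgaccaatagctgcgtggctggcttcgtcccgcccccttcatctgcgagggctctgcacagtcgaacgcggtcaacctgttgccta

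The response element core was present in 4 of the 5 windows, and Mavs was the window without it. Over all 32851 windows of this length, 3.44% held a match. Ddx60 had 2 copies of the same letters, GAAACCGAAA, the nearer beginning 19 bases and the farther 53 bases before the start. Ifi205 had one that began 134 bases before the start, GAAATTGAAA, and another on the opposite strand after it, which reads GAAAGTGAAA. Ddx58 had a single match on the opposite strand just after the start, reading GAAATCGAAA, and Ifih1 a single match, GAAACAGAAA, from 33 bases after the start. A gamma-activated site (TTCNNNGAA, in 8.3% of all windows) and the NF-kB core (1.47%) were in none of the 5. The TATA box letters TATAAA were in those of Ddx58, Ddx60 and Ifi205, against 13.6% of all windows. No match overlapped another. These are matches of letters in a fixed window and not measured binding sites.

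**Figure D1:**
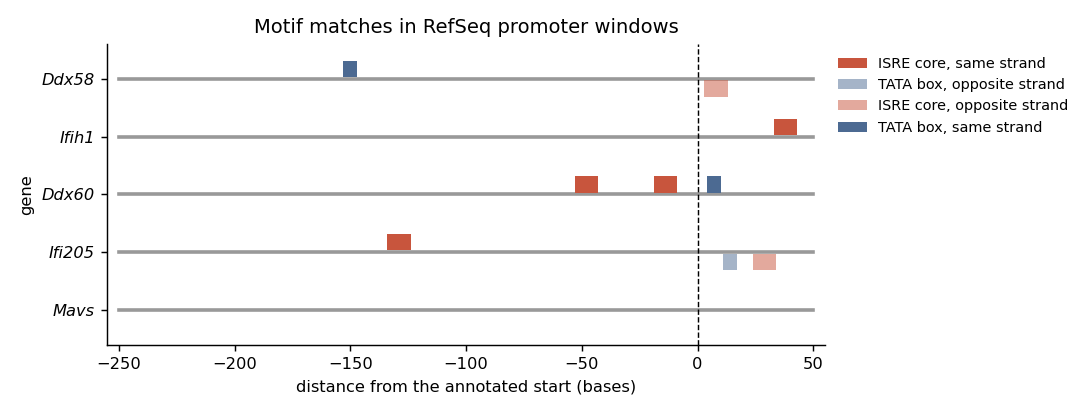
Matches to the interferon-stimulated response element core (ISRE core, red) and the TATA box letters (blue) along the 5 promoter windows, by distance in bases from the annotated start. Boxes above the line are on the gene's strand and paler boxes below it on the opposite strand. Ddx60 and Ifi205 each hold 2 response element cores, Ddx58 and Ifih1 hold 1, and Mavs holds neither motif.

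The question for each gene was how adiponectin cultures differed from the vehicle culture of the same time. All 6 measured sensor genes rose and Mavs did not pass the test. In limma with time point as a block, 6 of 7 genes were higher at an adjusted p under 0.05, where 2.05% of all 19938 genes were, and 0 of 7 were lower, where 0.371% of all genes were. The median of the 7 mean differences was 1.88 on the log2 scale, beside 0.01 over all genes. For the 6 that rose, every adiponectin array lay above every control array, which held for 1.53% of all genes. The same 6 were at least 2-fold higher at each of the 5 times, as were 0.286% of all genes. In cultures of mixed cells, more cells of a type that expresses a gene and more of its RNA per cell cannot be told apart.

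**Figure D2:**
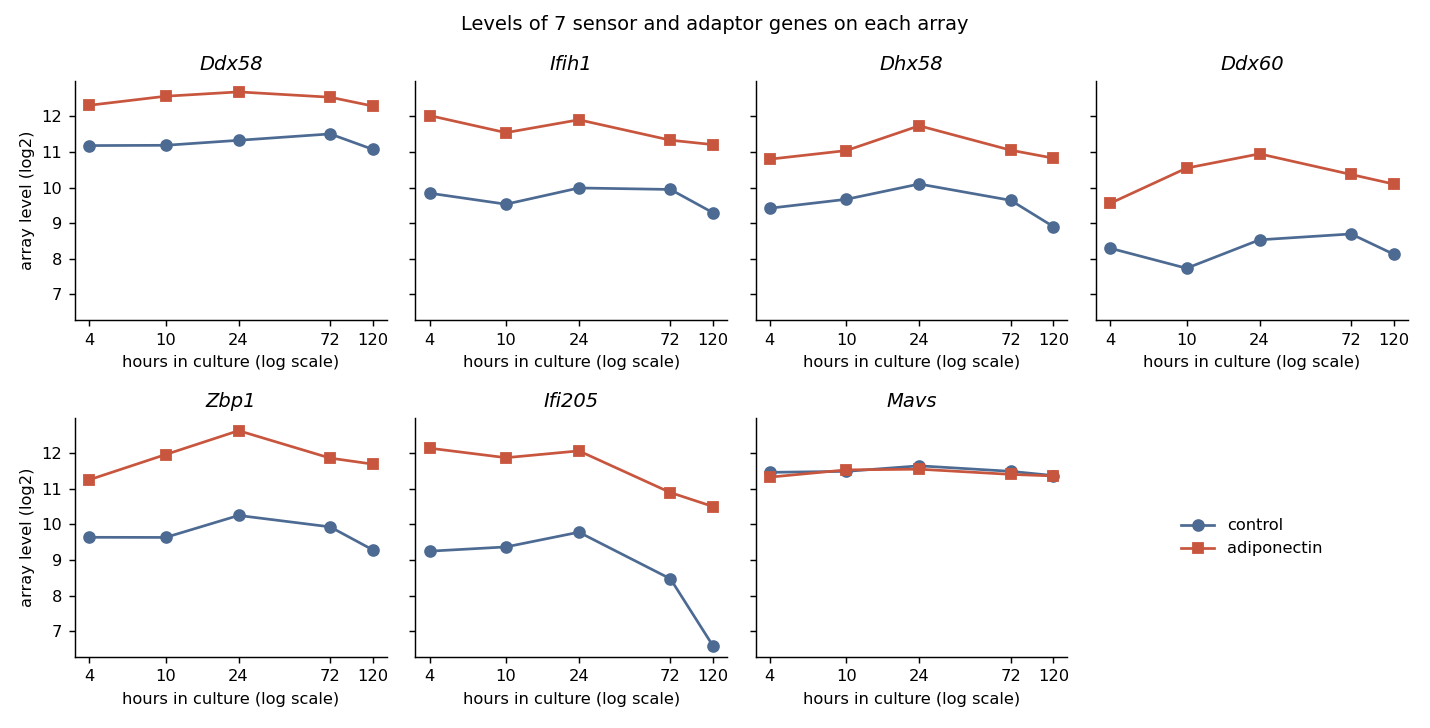
Array level (log2) of each of the 7 genes against hours in culture (log scale), with blue circles for the control arm and red squares for the adiponectin arm, 1 array per point. The arms are apart at every time for the 6 sensor genes and lie on each other for Mavs. Levels of different genes come from different probe sets and are not comparable between panels.

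Ddx58 encodes RIG-I, the receptor for short double-stranded RNA with a triphosphate end. Its control levels were 11.18, 11.19, 11.33, 11.50 and 11.07 at 4, 10, 24, 72 and 120 h, and its adiponectin levels 12.31, 12.56, 12.68, 12.53 and 12.29. The arms did not overlap, and neither changed much with time: the 5 control arrays spanned 0.43 and the 5 adiponectin arrays 0.40. The mean difference was 1.22 ± 0.15 (log2, SD, n = 5 pairs; 2.33-fold; limma adjusted p = 8.27e-06), the smallest rise of the 6 and the one with the least spread between times.

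Ifih1 encodes MDA5, the receptor for long double-stranded RNA. It stood at 9.84, 9.53, 9.99, 9.95 and 9.29 in control cultures from 4 to 120 h and at 12.02, 11.54, 11.90, 11.33 and 11.20 in adiponectin cultures. The lowest adiponectin array was 1.22 above the highest control array, the widest gap among the 7 genes. The difference was largest at 4 h (2.18, 4.52-fold) and smallest at 72 h (1.38, 2.61-fold), with a mean of 1.88 ± 0.30 (n = 5 pairs; 3.68-fold; limma adjusted p = 4.25e-06).

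Dhx58 encodes LGP2, the third receptor of the family, which lacks the signalling domains of the other two and tunes their activity. Its levels were 9.42, 9.67, 10.10, 9.64 and 8.90 without adiponectin and 10.80, 11.04, 11.73, 11.05 and 10.83 with it. Both arms were highest at 24 h, and the adiponectin array of that time stood apart from the other 4. The mean difference was 1.54 ± 0.24 (n = 5 pairs; 2.91-fold; limma adjusted p = 6.22e-06), and the largest single one, 1.92, was at 120 h, when the control level was lowest.

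Ddx60 encodes an interferon-inducible helicase linked to RIG-I-like receptor signalling. Control cultures were at 8.30, 7.74, 8.53, 8.70 and 8.13, close to the array medians, and adiponectin cultures at 9.56, 10.55, 10.95, 10.37 and 10.10. The 10 h pair gave the largest difference of this gene, 2.81 (7.01-fold), and the 4 h pair the smallest, 1.26 (2.39-fold). From 4 to 10 h the adiponectin level went up by 0.99 while the control level fell by 0.56, so both arms contributed to that widening. The 10 h control array also had the lowest median of the 10 arrays, 8.27 against 8.41 for the 4 h control. Each of these levels comes from 1 array. The mean difference was 2.02 ± 0.61 (n = 5 pairs; 4.07-fold; limma adjusted p = 8.32e-05), the least precise of the 6 next to Ifi205.

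Zbp1 encodes the sensor of Z-form nucleic acid, which can trigger necroptosis through RIPK3. Its control levels were 9.63, 9.63, 10.25, 9.93 and 9.28 and its adiponectin levels 11.25, 11.96, 12.63, 11.86 and 11.69. As for Ddx60, the 4 h pair was the closest, at 1.61 (3.06-fold), and the other times lay between 1.93 and 2.41. The mean difference was 2.13 ± 0.35 (n = 5 pairs; 4.38-fold; limma adjusted p = 3.95e-06).

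Ifi205 belongs to the HIN-200 family of interferon-induced proteins, which also holds the DNA sensor Aim2. It was at 9.24, 9.36, 9.78, 8.47 and 6.59 in control cultures and at 12.13, 11.87, 12.06, 10.89 and 10.50 in adiponectin cultures. The 120 h control value was the lowest by far and lay below its array's median of 8.44, so the difference at that time, 3.91 (15.04-fold), rests on a dim value. At the other 4 times the difference was between 2.28 and 2.89. The mean, 2.80 ± 0.66 (n = 5 pairs; 6.97-fold; limma adjusted p = 1.36e-05), was the largest of the 7 and came to 2.52 without the 120 h pair (adjusted p = 4.57e-06). Without time as a block, that is without pairing, its adjusted p was 0.0566. HIN-200 genes are close relatives, and how far this probe set also binds transcripts of other family members was not tested.

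Mavs, the adaptor through which RIG-I and MDA5 signal, was at 11.46, 11.48, 11.64, 11.48 and 11.37 without adiponectin and at 11.32, 11.52, 11.54, 11.40 and 11.36 with it. The arms overlapped, and the difference had the lower sign in 4 of 5 pairs. Its mean was -0.06 ± 0.07 (n = 5 pairs; limma adjusted p = 0.890), with a 95% interval from -0.21 to 0.10, which is 0.864-fold to 1.07-fold. A mean change as large as that of any of the 6 sensors lies outside this interval.

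**Figure D3:**
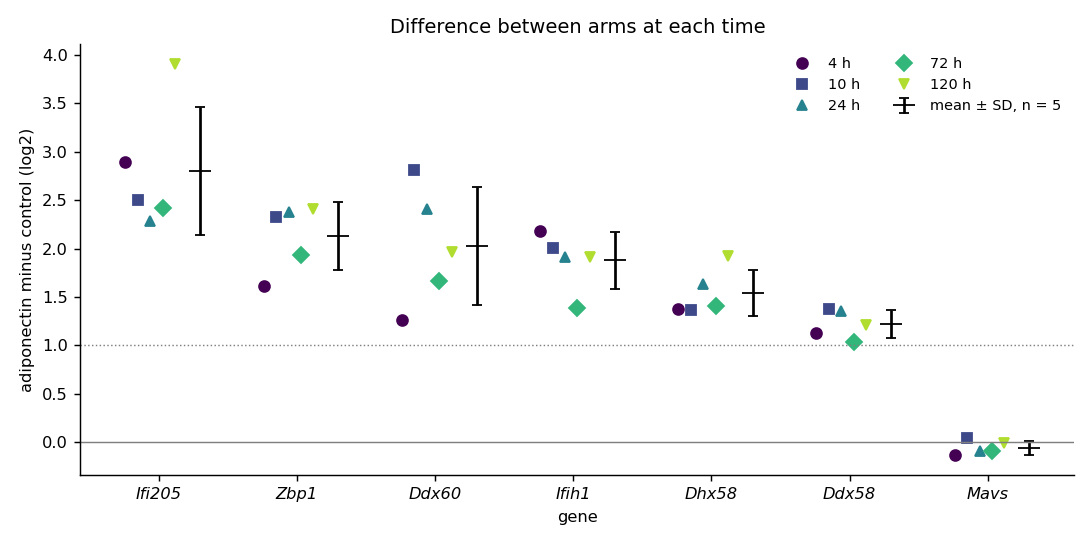
Adiponectin minus control (log2) for each gene at each of the 5 times, with the mean and SD over the 5 pairs in black. The dotted line marks 2-fold. All values of the 6 sensors lie above it, from 1.03 for Ddx58 at 72 h to 3.91 for Ifi205 at 120 h, and the 5 values of Mavs lie between -0.13 and 0.04.

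The 6 sensors were not induced to the same extent. In order of the mean difference they ran Ifi205, Zbp1, Ddx60, Ifih1, Dhx58 and Ddx58. Neighbours in this order were not apart: the 5 differences of each overlapped those of the next, and Zbp1 exceeded Ddx60 in only 3 of 5 pairs (by 0.11 ± 0.38). Ifi205 was the larger in 5 of 5 pairs against Ifih1 (by 0.92 ± 0.65), Dhx58 and Ddx58, with no overlap of their ranges. Among the 3 receptors, Ifih1 exceeded Ddx58 in 5 of 5 pairs by 0.66 ± 0.25 without overlap, whereas Ifih1 and Dhx58 differed by 0.34 ± 0.37 and Dhx58 was the larger in 2 of 5 pairs. With 5 pairs an exact two-sided sign test cannot go below 0.0625, so these orderings are given as counts. Probe sets differ in how strongly they compress a change, which also enters such comparisons.

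At single times each arm had 1 array, so no test was made. The median difference over the 7 genes was 1.38 at 4 h, 2.01 at 10 h, 1.91 at 24 h, 1.41 at 72 h and 1.92 at 120 h, while over all genes it stayed between -0.03 and 0.07. At least 2-fold higher were 6 of 7 genes at every time, against 0.727% of all genes at 4 h, 0.893% at 10 h, 0.853% at 24 h, 0.547% at 72 h and 0.752% at 120 h. After a further quantile normalization the count at 72 h was 5, with Ddx58 below 2-fold. The sensors were thus already higher in the first cultures taken and still higher in the last.

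Whether the difference grew or shrank with time was asked with a treatment by log2 hours term. None of the 7 genes passed in limma, and none had an unadjusted p under 0.05. Over all genes 0% passed in either direction, with 620 rising and 1339 falling at an unadjusted p under 0.05. The term was most negative for Ifih1, at -0.10 ± 0.05 (SE) per doubling of hours (limma adjusted p = 0.519), and most positive for Ifi205, at 0.13 ± 0.11 (limma adjusted p = 0.649). Without the 120 h pair the term of Ifi205 had the opposite sign, at -0.11. The 95% intervals reached from -0.22 to 0.01 for Ifih1 and from -0.11 to 0.37 for Ifi205, so a modest drift in either gene was not detectable with 5 pairs.

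For 5 of the 6 sensors the 5 levels of an arm spanned less than the mean difference between arms, and Ifi205 was the exception, with control levels spanning 3.19. No gene of the 7 passed in limma for a slope on log2 hours in either arm. In the control arm 4.64% of all genes rose and 4.45% fell, and in the adiponectin arm 4.15% rose and 3.46% fell. The control split depended on scaling: 925 rose and 888 fell, against 738 and 1559 with arrays centred on their medians. Ifi205 had the steepest slopes, -0.46 ± 0.14 (SE) per doubling in control cultures (limma adjusted p = 0.0733, unadjusted p = 0.00915) and -0.33 ± 0.14 in adiponectin cultures (limma adjusted p = 0.223, unadjusted p = 0.0434). Its control slope passed under some other settings, with an adjusted p of 0.0170 when late cultures (72 and 120 h) were set against early ones. It rested largely on the low Ifi205 value of the 120 h control: without the 120 h cultures it was -0.15 (limma adjusted p = 0.738). Ifih1 in the adiponectin arm followed, at -0.15 ± 0.06 (limma adjusted p = 0.183, unadjusted p = 0.0311). The other slopes were between -0.07 and 0.08 in both arms.

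**Figure D4:**
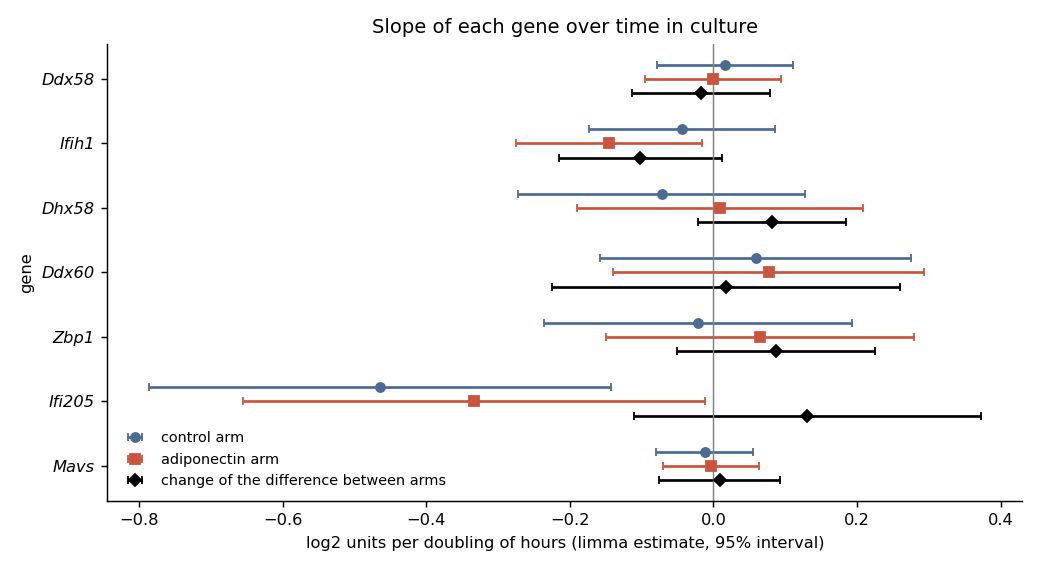
limma slope of each gene on log2 hours, in log2 units per doubling of time, for the control arm (blue circles), the adiponectin arm (red squares) and the change of the difference between arms (black diamonds), with 95% intervals. The intervals of the change all span 0. Both arms of Ifi205 and the adiponectin arm of Ifih1 have intervals below 0, and neither gene passed after adjustment over all genes.

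A straight line missed part of the course. Controls of 5 of the 7 genes peaked at 24 h, as did 23.8% of all genes, and the adiponectin level of 5 of 7 peaked then too, as did 23.4% of all genes. From 72 to 120 h all 7 genes moved down in both arms, where 43% of all genes did so among controls and 52% with adiponectin. Between those times Ifi205 fell by 1.88 in the control arm (3.69-fold) and by 0.39 in the adiponectin arm. The control level was lowest at 120 h for 6 of 7 genes, as for 17.9% of all genes, and the adiponectin level for 3 of 7, as for 30.9% of all genes. These counts were chosen after the values were seen and carry no test.

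Marker genes of several cell types moved over the same hours. Between 24 and 120 h the mean level of 8 neutrophil markers in controls went from 13.10 to 9.93, that of 5 B cell markers from 11.26 to 9.06 and that of 6 plasmacytoid dendritic cell markers from 9.98 to 8.83. The mean of 3 megakaryocyte markers went from 12.42 to 9.77. In contrast 7 osteoclast markers rose from 10.20 to 12.19, and 6 macrophage markers went from 12.34 to 12.40. Over those hours control Ifi205 fell by 3.19. Control levels of the plasmacytoid dendritic cell markers moved unequally over the 5 times. Tcf4 ranged from 10.79 to 11.30, Pacsin1 from 7.79 to 8.16 and Bst2 from 9.90 to 10.60. Siglech ranged from 7.70 to 9.78, Ccr9 from 7.65 to 9.77 and Ly6d from 8.21 to 11.25. The part of the cells of these lists in the course of Ifi205 was not tested. Between the arms, the 8 neutrophil markers ranged over the 5 times from 9.93 to 13.39 without adiponectin and from 10.07 to 13.12 with it, and 0 of 8 passed the test. The 5 B cell markers ranged from 9.06 to 11.37 and from 9.40 to 11.37, and 0 of 5 passed. Of 6 plasmacytoid dendritic cell markers (8.83 to 9.98 and 8.90 to 10.31) only Bst2 passed, itself an interferon-induced gene, at 1.26 ± 0.42 (n = 5 pairs; limma adjusted p = 0.000346). Siglech, another marker of the list, was at -0.02 ± 0.20 (limma adjusted p = 0.975). Ccr9, Ly6d, Tcf4 and Pacsin1 had mean differences of 0.02, -0.18, 0.04 and 0.09. Of 6 macrophage markers (12.29 to 12.41 and 12.37 to 12.76) only the Fc receptor gene Fcgr1 was higher, at 0.98 ± 0.48 (n = 5 pairs; limma adjusted p = 0.00363). Some markers of other cells also differed between the arms. The mean of 6 conventional dendritic cell markers differed by -0.34, -0.16, -0.77, -0.79 and -0.86 from 4 to 120 h. Of these 6 only Cd209a, a lectin gene, passed, and it was lower, at -2.36 ± 0.54 (n = 5 pairs, limma adjusted p = 1.36e-05). H2-Aa was at -0.55 ± 0.43 (limma adjusted p = 0.0703) and Itgax at -0.65 ± 0.73 (limma adjusted p = 0.217). Flt3, Zbtb46 and Xcr1 had mean differences of 0.02, 0.01 and 0.03, from control means of 8.19, 7.80 and 6.84, below the array medians. The 7 osteoclast markers differed by 0.02, 0.10, -0.48, -1.37 and -0.41 on average, and of these only Atp6v0d2, a proton pump subunit gene, was lower (-0.91 ± 0.43; limma adjusted p = 0.00346). Of 4 endothelial markers only Kdr, a VEGF receptor gene, was higher (0.66 ± 0.35, limma adjusted p = 0.0117). Cdh5, Emcn and Pecam1 were at -0.21, -0.10 and 0.10, and the median of the 4 was 0.0035. The mean of 5 NK cell markers differed by 0.05, -0.15, 0.43, 0.57 and 0.76 from 4 to 120 h, with 0 of 5 past the test. Il2rb had the largest mean difference, 0.79 ± 0.88 (limma adjusted p = 0.203). Prf1, Klrb1c, Gzma and Ncr1 were at 0.44, 0.19, 0.14 and 0.09. The control means of these NK cell markers were below the array medians. The part of these cells in the rise of the sensors was not tested. The marker genes named singly here were picked out after their values were seen.

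Genes around the sensors are given list by list, each count to be read beside the 2.05% of all genes that were higher and the 0.371% that were lower. Of 16 measured genes in the relay from MAVS to interferon, 3 rose and 0 fell, with a median of 0.06 beside 0.01 for all genes. Irf7, the transcription factor that amplifies interferon production, rose by 1.76 ± 0.44 (n = 5 pairs; 3.38-fold; limma adjusted p = 3.15e-05) and Ikbke, which encodes IKK-epsilon, by 0.71 ± 0.09 (1.63-fold; limma adjusted p = 0.000210). Azi2, a TBK1 adaptor, rose by 0.36 ± 0.15, a call lost without any 1 time (limma adjusted p up to 0.146). Tbk1 itself was at 0.26 ± 0.21 (limma adjusted p = 0.260) and its partner Tank at 0.30 ± 0.12 (0.0749), while Irf3, the factor that TBK1 activates first, was at -0.15 ± 0.16 (limma adjusted p = 0.608).

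Of 18 regulators of the receptors and of MAVS, 7 rose and 0 fell, with a median of 0.15. Usp18, which removes ISG15 and damps interferon signalling, rose by 2.63 ± 0.25 (n = 5 pairs; 6.19-fold; limma adjusted p = 6.05e-07). The ubiquitin ligase genes Trim21 (0.86 ± 0.13) and Trim25, which acts on RIG-I (0.70 ± 0.14), rose as well, as did Trim14 (0.65 ± 0.11). Tnfaip3, which encodes A20, was at 0.41 ± 0.42 (limma adjusted p = 0.226) and Prkra at -0.22 ± 0.29 (limma adjusted p = 0.547).

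Relatives of Ifi205 rose nearly throughout. Of 9 other measured HIN-200 genes, 8 rose and 0 fell, with a median of 1.33. Ifi208 rose by 2.26 ± 0.77, Ifi214 by 2.11 ± 0.23, Ifi209 by 2.00 ± 0.80 and Ifi213 by 1.69 ± 0.73 (n = 5 pairs; limma adjusted p = 0.000167, 1.14e-06, 0.000559 and 0.00116). Ifi206 was at 0.85 ± 0.90 (limma adjusted p = 0.160). Its differences ran 1.02, 1.60, 1.74, 0.28 and -0.37 from 4 to 120 h, so the last culture had the opposite sign. Ifi208 had a control mean of 5.87, well below the array medians, and those of Ifi206 (6.26) and Ifi213 (7.43) were below them too. Without time as a block the adjusted p of Ifi209, Ifi213 and Ifi214 was 0.214, 0.0767 and 0.127 in limma.

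The wider DNA-sensing set, with its nucleases, had 3 of 21 genes higher and 0 lower and a median of -0.01. Trex1, the exonuclease that clears cytosolic DNA, rose by 0.87 ± 0.19 (n = 5 pairs; 1.83-fold; limma adjusted p = 0.000166) and the dNTP hydrolase gene Samhd1 by 0.41 ± 0.16 (adjusted p = 0.0181). Aim2, the DNA sensor that opens an inflammasome, rose by 0.33 ± 0.09 (adjusted p = 0.0386). The Samhd1 call was lost without the 10, 24 or 72 h pair (limma adjusted p up to 0.0919) and the Aim2 call without any 1 pair (up to 0.157). Cgas, the enzyme that makes cyclic GMP-AMP on DNA, was at 0.43 ± 0.32 (limma adjusted p = 0.0849) from a control mean of 7.66, below the array medians, and the RNase H2 subunit gene Rnaseh2c was at -0.21 ± 0.19 (limma adjusted p = 0.414).

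Among other cytosolic RNA sensors and effectors 11 of 18 rose and 0 fell, with a median of 0.80; Ifit1 (2.88 ± 0.54), Oasl1 (2.69 ± 0.45), Oas3 (2.09 ± 0.48) and Oas1b (1.51 ± 0.25) rose most. Of 11 genes for endosomal sensing 4 rose and 0 fell, with a median of 0.08, Tlr3 by 1.14 ± 0.28 and Tlr9 by 1.10 ± 0.19 among them. Tlr7 (0.36 ± 0.16) and Myd88 (0.32 ± 0.10) also rose. Both of those calls were lost without any 1 pair (limma adjusted p up to 0.194 and 0.141) and on arrays centred on their medians.

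Zbp1 acts with death-inducing partners, of which 3 of 7 rose and 0 fell, with a median of 0.18. Mlkl, the executor of necroptosis, rose by 1.03 ± 0.23 (n = 5 pairs; 2.04-fold; limma adjusted p = 8.32e-05), Casp1 by 0.65 ± 0.17 and Cflar, an inhibitor of caspase-8, by 0.65 ± 0.20. Gsdmd was at 0.18 ± 0.11 (limma adjusted p = 0.395) and Fadd at -0.10 ± 0.24 (limma adjusted p = 0.849). Ripk3 was at -0.02 ± 0.25 (limma adjusted p = 0.977) and Casp8 at 0.09 ± 0.17 (limma adjusted p = 0.850). In the interferon signal itself 4 of 12 rose and 0 fell, with a median of 0.09: besides Irf7 these were Stat2 (1.51 ± 0.21), Irf1 (0.79 ± 0.26) and Irf9 (0.72 ± 0.08). The receptor kinase gene Tyk2 was at 0.27 ± 0.16 (limma adjusted p = 0.143). The list also held interferon genes that did not pass: Ifnb1 (0.07 ± 0.22), Ifna4 (0.004 ± 0.20) and Ifna2 (0.10 ± 0.30). Their control means of 6.54, 6.28 and 7.47 were below the array medians. The receptor genes Ifnar1 (0.02 ± 0.16) and Ifnar2 (0.04 ± 0.09) did not pass either.

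**Figure D5:**
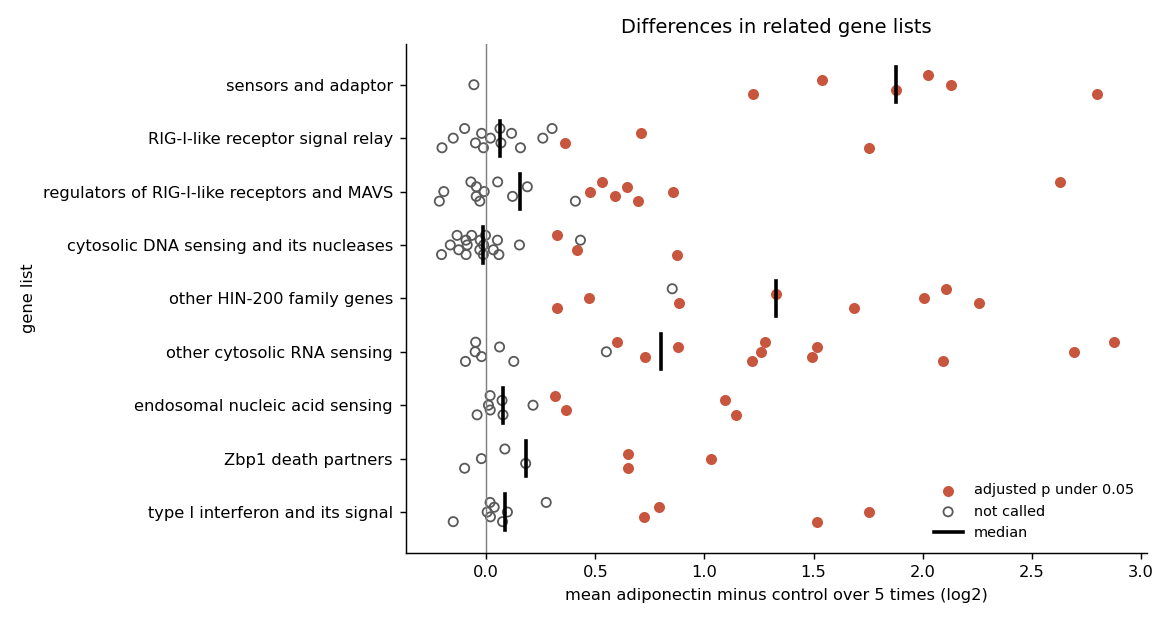
Mean adiponectin minus control over the 5 times (log2) for the 7 genes (top row) and for each gene of 8 related lists, filled red at an adjusted p under 0.05 and open otherwise, with the median as a black bar. A gene may stand in more than 1 list. The HIN-200 list, with 8 of 9 genes filled, has a median of 1.33, while the relay from MAVS, with 3 of 16, has one of 0.06.

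For each member the 2 genes outside the 8 with the most similar run of 5 differences were found by the mean absolute distance between the runs, in log2 units over the 5 times. Nearest to Ddx58 were Ifi35 (0.06) and Dtx3l (0.07), and to Ifih1 Gbp3 (0.12) and Gm12250 (0.18). Oasl2 (0.14) and Gbp9 (0.16) were nearest to Dhx58, AW112010 (0.13) and Phf11a (0.17) to Ddx60, and Phf11d (0.11) and Oas3 (0.14) to Zbp1. Ifi205 had no close match: its nearest were Usp18 (0.46) and Ifit3 (0.48), which did not share its large difference at 120 h (2.62 and 3.21 against 3.91). These 12 genes were chosen for their likeness to members that rose, so their own rise follows from that choice. Their mean differences ran from 1.17 for Dtx3l to 2.80 for Ifit3. Nearest to Mavs were Pdgfrb (0.01) and Nfya (0.02), both with mean differences near 0 by the same choice.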

How the data were processed

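Transcript levels were read on Affymetrix whole-transcript arrays from 100 ng of total RNA, per the labels' protocols. The authors deposited log2 values, for which Affymetrix Expression Console, Partek and RMA are named, per the submitters' processing notes. Their versions and order, and the genome build, are not given in the sources. RMA includes quantile normalization, which removes shifts shared by most genes. Of 35556 probe sets, 21789 carried 1 gene symbol in the platform annotation, 1621 several and 12146 none; the probe set with the highest mean stood for a gene. The symbols of the 7 measured members matched RefSeq (GRCm38.p6) by Entrez ID. Signal over background was not given, and the number of arrays limits the precision.

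Tests used limma 3.58.1 in R 4.3.3 (lmFit, eBayes, two-sided) over all 19938 genes with Benjamini-Hochberg adjustment and a threshold of 0.05. The adiponectin effect was fitted beside time as a block (4 residual degrees of freedom), the change of the effect with a treatment by log2 hours term (3), and the courses with an intercept and slope per arm (6). Arrays were paired by their labelled times; deviations of same-time arrays from their arm means correlated across genes at 0.42 to 0.80. The tests were also run on simulated arrays. Their noise was independent between arrays, so that run did not cover the correlation of same-time arrays. The members, the companion and marker lists and the tests were chosen with earlier results of these data known. Named genes were the members, the 2 nearest genes to each, and in each list up to 4 called genes and 2 others with the largest differences. The interferon ligand and receptor genes, Ripk3 and Casp8 were named besides, and other markers are named by their cell type. Alternatives covered normalization, the variance model, the block, a filter on dim genes, probe set averaging, the time scale and leaving out each pair. Motifs were searched with Python 3.11.15.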

Additional observations from a re-analysis of the deposited data

Results flagged for a closer look

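Among 21 sets of 5 values (the differences and each arm's levels of the 7 genes), 1 held a value far from the rest: the adiponectin level of Dhx58 at 24 h, 11.73, where the other 4 lay between 10.80 and 11.05. The gap was 0.73 of the whole range, against a critical value of 0.71. The 5 values of a set are different times rather than replicates, and chance alone gives a gap of that size in about 1 set in 20. The control level of Dhx58 was also highest at 24 h (10.10).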

How the results depend on the processing

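In the effect of adiponectin, 6 of 7 genes were higher and 0 lower under all alternatives run but one: without a replicate block, that is without pairing by time, Ifi205 did not pass (adjusted p = 0.0566) and 5 were higher. No other member lost its call without the block. The mean differences over the alternatives ranged from 1.18 to 1.27 for Ddx58, from 1.80 to 2.00 for Ifih1, from 1.45 to 1.58 for Dhx58, from 1.83 to 2.21 for Ddx60, from 2.06 to 2.26 for Zbp1 and from 2.52 to 2.93 for Ifi205, with the extremes among fits without 1 pair. Mavs passed under none. For the courses, the number of falling members in the control arm went from 0 to 1 with arrays centred on their medians and with early against late times, and from 0 to 1 without single pairs (4 or 24 h). In the adiponectin arm it was 1 with that arm fitted alone. The gene was Ifi205 each time, and the cause was not tested. The change of the effect with time stayed at 0 members under every alternative run. The counts at single times stayed at 6 under the 3 alternatives run for them, except at 72 h after a further quantile normalization (5).

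Counts over all genes moved more. Without the block, 146 genes were higher and 4 lower in place of 408 and 74. The lower count was 117 with a trended, robust variance prior, 113 after a further quantile normalization, 30 with log2 hours as a covariate, 46 when the 10 h pair was left out and 21 when the 24 h pair was. In the control course, 925 rising and 888 falling genes became 738 and 1559 with arrays centred on their medians, and 513 and 490 with that arm alone. The filter on dim genes left 605 rising. Leaving out single pairs gave 5 to 1476 rising and 17 to 1195 falling genes in the control arm, and 23 to 868 rising and 15 to 940 falling in the adiponectin arm (827 and 689 with all pairs), with the lowest counts without the 120 h pair. With no replicate block, Casp1, Ikbke, Azi2, Samhd1, Aim2, Tlr7 and Myd88 also lost their calls. Tank gained one with the trended prior and with the filter on dim genes.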

Other observations

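The response element core printed above for the sensors was counted over all tested genes as a description. The members were not left out, so Ddx58, Ifih1, Ddx60 and Ifi205 are among the higher genes that held it. A promoter window was found for 334 of the 408 genes that rose with adiponectin, and 68 of them (20.4%) held the core, beside 3.89% of 15614 tested genes with a window. Of 57 genes at least 2-fold higher at each time, 44 had a window and 24 of these (54.5%) held it. Of 74 genes that were lower, 55 had a window and 2 (3.64%) held it. Windows of one length do not take in elements farther from the start, and the counts carry no test.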
